A study of Mus musculus with 60 samples.

Results

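A module of 62 kidney transcripts had a daily rhythm that peaked between midday and the middle of the night in control mice and was flattened in mice lacking the clock gene Bmal1 (Arntl) in the renal tubule. Its members were chosen from the same counts that are described here. On a log2(CPM + 0.5) scale, where CPM is a gene's count scaled by the total over all genes of that library, a 24 h cosine was fitted to the 30 control and to the 30 mutant mice. A member had a mean of at least 2 CPM, a control rhythm with a peak-to-trough distance of at least 0.7 log2 units and an R2 of at least 0.4, a control peak between zeitgeber time (ZT) 6 and ZT18, and a mutant peak-to-trough distance of at most 50% of that in control. A set of 13 clock genes was left out by name, and 5 of them (Ciart, Cry1, Cry2, Dbp and Tef) met every other condition. The 62 members came from 55335 genes in the files, 12551 of which reached the minimum level, and 299 genes had a control rhythm of the required strength at any time of day.

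RNA of 60 male mice was sequenced, with 5 mice per genotype at each of ZT0, ZT4, ZT8, ZT12, ZT16 and ZT20, and each library came from a different mouse. The mutants, called cKOt, were Bmal1lox/lox/Pax8-rtTA/LC1 and the controls were their Bmal1lox/lox littermates, bred on a C57BL/6J background. Both genotypes drank doxycycline (DOX, 2 mg/ml, with 20 mg/ml sucrose) for 2 weeks from 8 weeks of age, lived under 12 h of light and 12 h of dark with free access to food, and were killed 4 weeks after DOX ended, so controls carried the floxed alleles and the drug but no Cre. Pax8-rtTA limits the Cre to renal tubule cells, and other kidney cells keep Bmal1. The labels call the tissue renal tubule, whereas the methods describe frozen kidney pieces. Summed markers of podocytes (278 to 424 CPM in control) and endothelium (327 to 417 CPM) were present beside those of the proximal tubule (35911 to 51174 CPM).

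BMAL1 and its partner CLOCK bind E-box sequences and switch on the genes of their own repressors, the PER and CRY proteins, and of the nuclear receptors REV-ERBα and REV-ERBβ, which repress transcription through another DNA element. Genes activated through E-boxes, or through the D-boxes bound by DBP, TEF and HLF, tend to peak during the day and at dusk in mice, which rest in the light. Kidney rhythms also follow hormones such as corticosterone, and food intake, and these cues reach the tubule from outside.

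Arntl, the targeted gene, differed between genotypes in its rhythm, but its log2 level averaged over the day was not lower in cKOt mice. The counts are per gene, and reads within the deleted part were not analysed, so its level does not check the labels. In control mice Arntl ranged from 2.66 ± 1.52 CPM at ZT12 to 47.4 ± 10.6 CPM at ZT0 (mean ± SD, n = 5). In cKOt mice the group means lay between 17.6 and 25.1 CPM at all 6 times, and the mean over the day rose by 0.71 on the log2 scale (adjusted p = 2.22e-09, edgeR). At ZT0 and ZT20 the cKOt group means were lower (25.1 and 24.5 CPM, against 47.4 and 45.1 CPM in control). Without logs the mean over all mice was 21.4 CPM in control and 21.3 CPM in cKOt. Libraries held 17791420 to 20906706 counts in genes, and no library stood apart in depth.

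Sequence upstream of 50 of the 62 members was present in the RefSeq promoter table (GRCm38.p6), and 3 stretches are shown because they carry the letters of the elements named above. Capitals mark the match, and each stretch is the 120 bases that end just before an annotated start. The first is Glul, with TAGGTCA, the core of the REV-ERB element, 58 bases upstream of the start (chr1:153899809-153899928, plus strand). Gprin3 follows with the E-box CACGTG 99 bases upstream (chr6:59426307-59426426, minus strand). Wnt5b has a D-box, TTATGTAA on the other strand, 119 bases upstream (chr6:119467212-119467331, minus strand). Its other annotated starts had no match upstream, and which start is used in these kidneys was not tested.
Glul: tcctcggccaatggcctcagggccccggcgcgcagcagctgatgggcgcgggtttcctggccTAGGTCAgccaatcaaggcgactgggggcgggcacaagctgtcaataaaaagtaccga
Gprin3: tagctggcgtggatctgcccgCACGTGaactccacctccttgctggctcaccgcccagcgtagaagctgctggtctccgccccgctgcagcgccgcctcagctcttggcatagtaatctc
Wnt5b: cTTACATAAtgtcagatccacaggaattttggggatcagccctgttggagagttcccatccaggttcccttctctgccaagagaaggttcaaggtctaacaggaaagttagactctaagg

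Windows of 250 bases before and 50 after the start were searched on both strands. CACGTG occurred for 3 of 50 members (6.0%), for 8.09% of all 27025 genes in the table and for 11.4% of the tested genes in it. TTATGTAA occurred for 2 members (4.0%, against 1.11% of all and 0.753% of tested genes) and TAGGTCA for 2 (4.0%, against 2.97% and 2.37%). The cAMP response element TGACGTCA occurred for 0 (against 2.03% and 3.35%). A match is only a run of letters, counts of 2 or 3 members are few, and no test was run on them.

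The control rhythms had a median peak-to-trough distance of 0.91 log2 units and a median peak at ZT10.2. Counted by 2 h bins from ZT6, the peaks numbered 14, 17, 15, 11, 3 and 2, so 57 of 62 fell before ZT14. The highest of the 6 control group means was at ZT12 for 29 members and at ZT8 for 18, and the lowest was at ZT0 for 36 and at ZT20 for 18. In cKOt mice the fitted distance had a median of 0.29 (range 0.042 to 0.59), and the cosine explained less than 10% of the variance for 24 members. For 43 of 62 members the fitted cKOt peak lay within 4 h of the control peak. A rhythm called flattened or lost is thus a weaker one, and need not be absent. The amplitudes in both genotypes chose the members, so they are given as a description and no test was run on them. Values of single members are given below at times picked by the control group means, the highest, the lowest or both. A gap between genotypes at the control high point, and overlap at the low point, are therefore favoured by the rule.

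**Figure D1:**
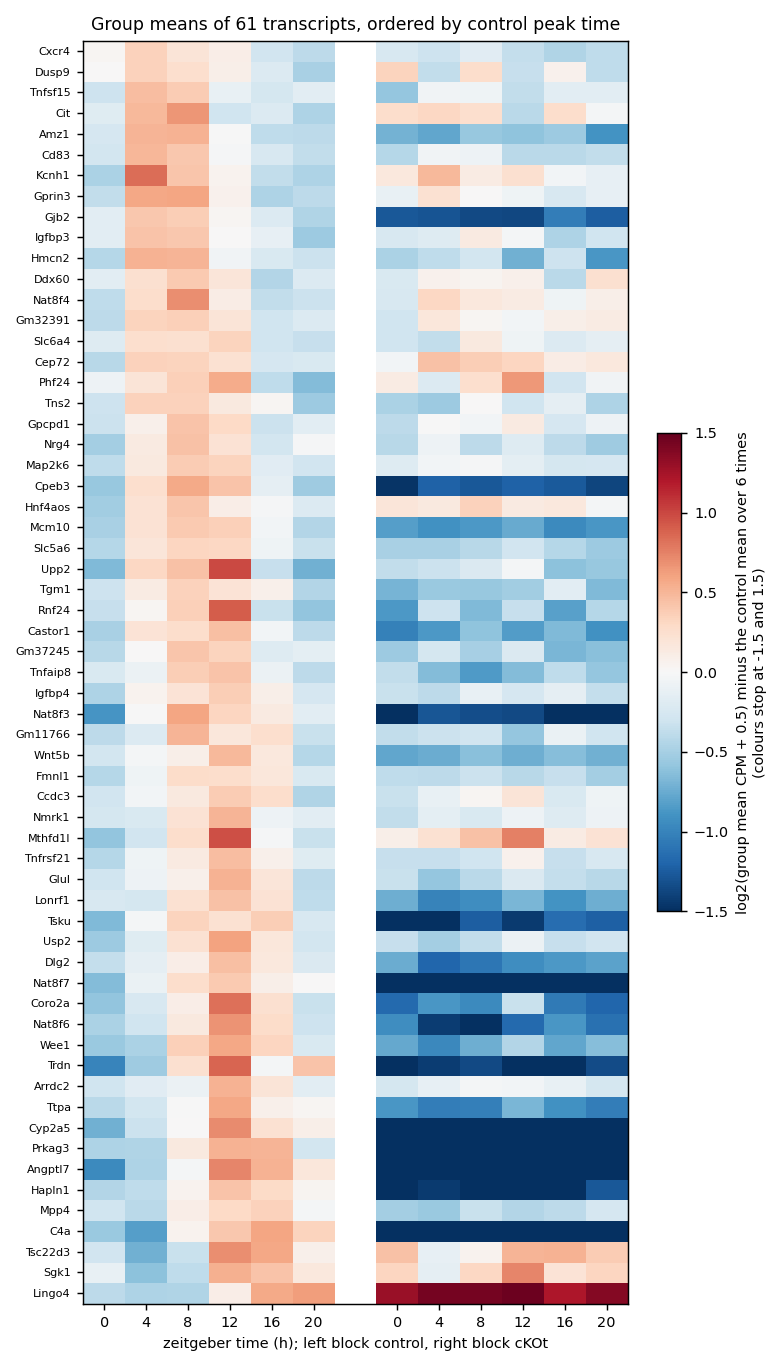
Group means of 61 of the transcripts (rows, ordered by control peak time) at 6 zeitgeber times in control (left block) and cKOt mice (right block). Colour gives log2(group mean CPM + 0.5) minus the mean of the 6 control values, so the control block passes from blue through red to blue while the rows of the cKOt block change less from left to right, most of them in blue and that of Lingo4 in red.

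Near the thresholds the choice was close. Cxcr4 was just inside the amplitude limit with 0.70 and Gda just outside with 0.697 log2 units, and Dusp9 (R2 of 0.402) was included while Slc16a11 (0.384) was not. Nat8f6 kept 49.8% of its control amplitude and Zbtb16, left out, kept 50.7%. Cxcr4 also had the earliest control peak (ZT6.03, with Mt1 outside at ZT5.78) and Lingo4 the latest (ZT17.1, with Lonrf3 outside at ZT19.2). Tnfsf15 had the lowest mean level (2.04 CPM), and Gypc at 1.93 CPM was not admitted.

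**Figure D2:**
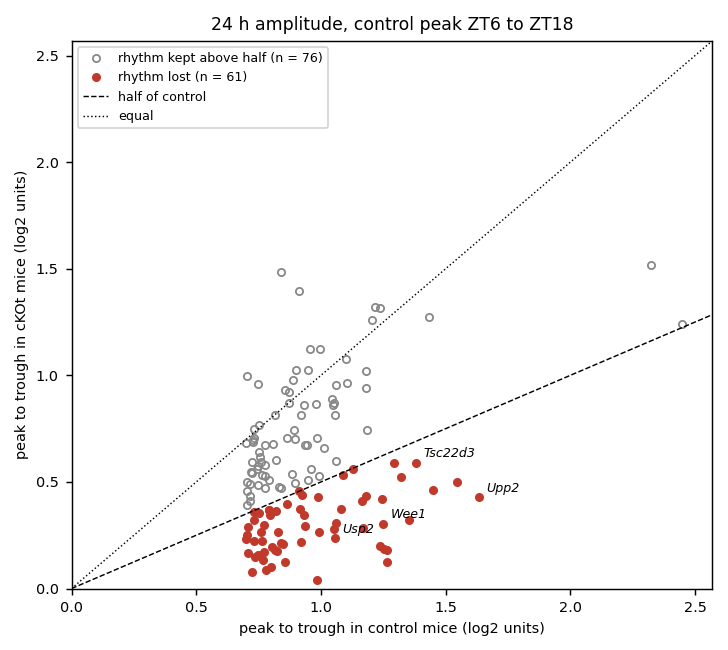
Fitted 24 h peak-to-trough distance (log2 units) in control (x axis) and cKOt mice (y axis) for 137 transcripts with a control rhythm of the required strength and a control peak from ZT6 to ZT18. The dotted line marks equal values, 61 members (filled) lie under the dashed line, which marks 50% of control, and the 76 other transcripts (open) lie above it.

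The difference between genotypes in the level averaged over the day was not a criterion of the choice, apart from the minimum of 2 CPM over both genotypes together. The mean over 6 equally spaced times is independent of the 24 h cosine terms, and it was compared between genotypes by edgeR's quasi-likelihood test in one fit of all 60 libraries, with Benjamini-Hochberg adjustment over 15546 genes. The mean level fell in cKOt mice for 47 of 62 members (of all genes tested, 23.2% fell) and rose for 6 (26.8% of all genes). The median log2 fold change was -0.46, against 0.012 over all genes. A fall of at least 2-fold was found for 16 members (1.07% of all genes) and a rise of at least 2-fold for 2 (0.804%).

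The transcripts with a flattened rhythm but a control peak outside ZT6 to ZT18 had the opposite balance. Of those 85 genes, 81 rose and 3 fell (26.8% and 23.2% of all genes), with a median of 0.71. Among the 76 genes with a day to dusk peak whose rhythm was kept above 50%, 30 fell and 22 rose, and the median was -0.09. The direction thus differed between the sets as a description, and no test of the sets against each other was run.

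The minimum level and the log scale bear on this count. The minimum was set over both genotypes together, so a gene low in cKOt mice could pass through its control level. Likewise a gene low in control mice, such as Lingo4, could pass through its cKOt level. A gene close to 0 CPM in cKOt mice has its amplitude compressed by the added 0.5, so a large fall alone can bring it under the 50% limit. Of the 62 members, 11 had a cKOt mean below 2 CPM and all 11 fell. Of the 50 members with at least 2 CPM in both genotypes, 36 fell and 5 rose (25.0% and 29.7% of the 12360 genes tested at that level), and 10 fell at least 2-fold (0.518%). With 2 added in place of 0.5, 40 members were left, and 32 of these fell.

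The balance of falls and rises differed with peak time within the module, which is given as a description. For peaks between ZT6 and ZT10 the mean level fell for 21 of 31 members (median log2 fold change -0.38, and 23.2% of all genes fell). For peaks between ZT10 and ZT14, 25 of 26 fell (median -0.92). Only 1 of the 5 members with later peaks fell, C4a, and the other 4 rose, among them Tsc22d3, Sgk1 and Lingo4.

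**Figure D3:**
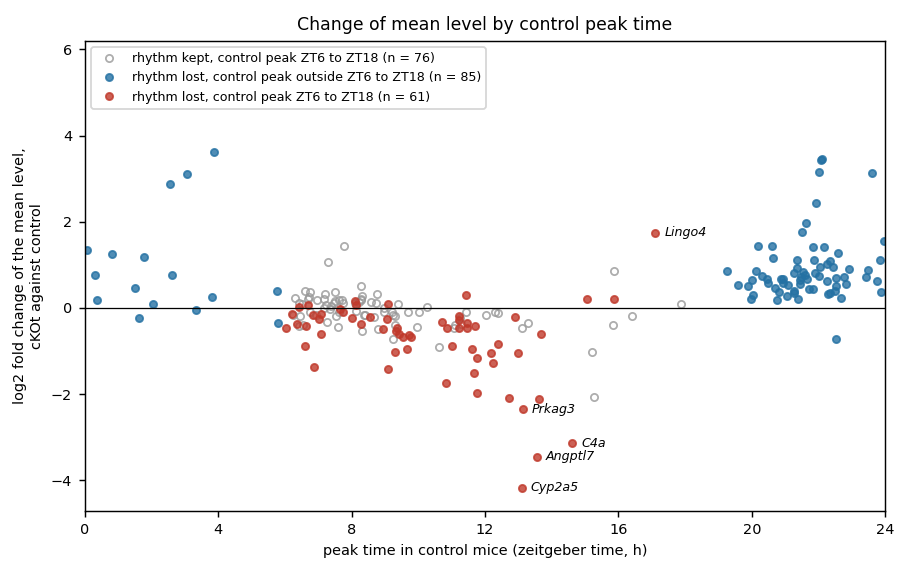
Log2 fold change of the mean level, cKOt against control (y axis), by fitted peak time in control mice (x axis, h) for 61 members, for 85 transcripts with a lost rhythm and another peak time, and for 76 with a kept rhythm and a peak from ZT6 to ZT18. Most members lie under 0, with Cyp2a5, Angptl7, C4a and Prkag3 lowest, while Lingo4 lies above 1 and most of the 85 lie above 0.

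The day average of a flattened gene could lie anywhere in the control range. For 28 members the cKOt level was under the fitted control trough, and for 22 it was in the lower part of the control range. For 10 it was in the upper part, and for 2, Lingo4 among them, it was above the control peak. By time of day the median difference between genotypes over members was -0.19 at ZT0, -0.61 at ZT4, -0.68 at ZT8, -0.70 at ZT12, -0.44 at ZT16 and -0.23 at ZT20, a time course that the choice of members fixes, since their control peaks lie in ZT6 to ZT18 and their cKOt rhythms are flat. In that fit the level was lower in cKOt mice at all 6 times for 34 members and higher at all 6 for 2.

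**Figure D4:**
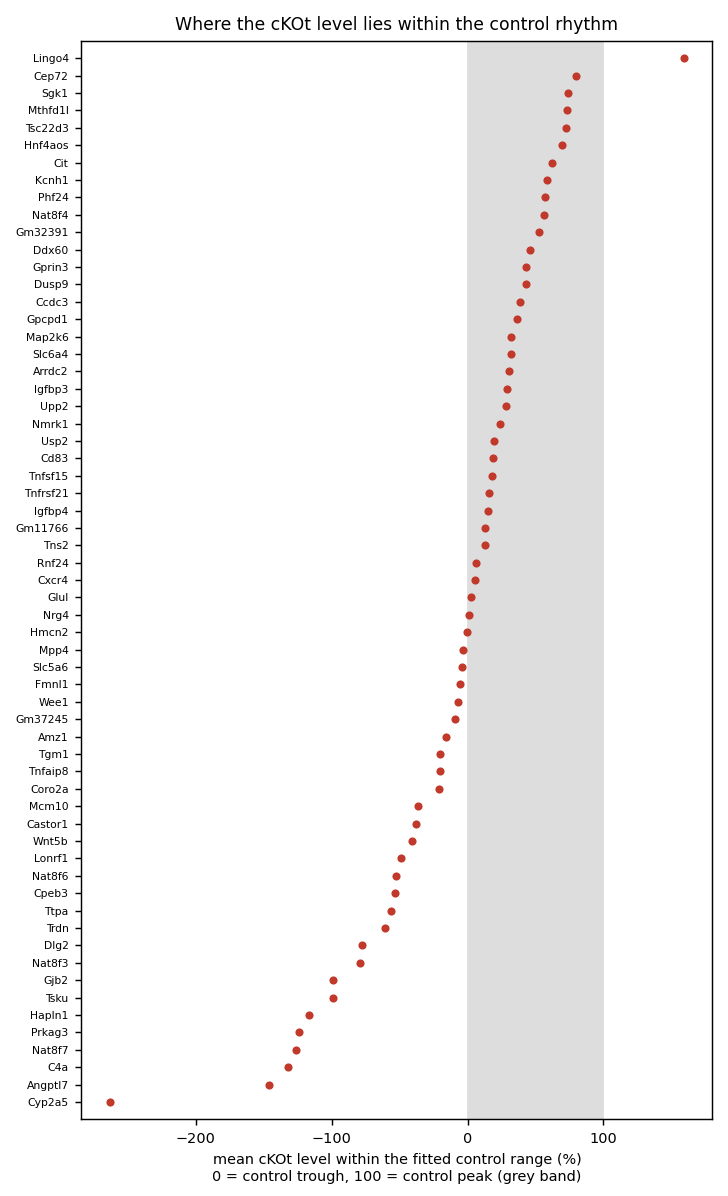
Mean cKOt level of 61 members as a percent of the fitted control range (x axis, 0 is the control trough and 100 the control peak, grey band), one row per transcript. Cyp2a5 lies farthest to the left at -263%, 28 points lie left of the band, and Lingo4 (159%) lies right of it.

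The kidney is a mixture of cells, and fewer cells of a type and less RNA per cell cannot be told apart in these libraries. None of the 12 lists of markers for tubule segments, other kidney cells, blood and injury held a member. Their summed levels differed between genotypes by -0.38 (lymphocyte) to 0.21 (distal convoluted tubule) on the log2 scale. The lymphocyte sum had a control median of only 1.94 CPM, and 2 of its 6 genes were tested. In the test of mean levels, 5 of 5 endothelium, 5 of 6 fibroblast and 5 of 6 macrophage genes fell, and 0 rose. In the distal convoluted tubule list 4 of 5 rose and 0 fell, and in the intercalated cell list 4 of 5 rose and 1 fell. In the proximal tubule list 5 of 9 fell and 3 rose (of all genes tested, 23.2% fell and 26.8% rose). Within the fibroblast list the control sum had a peak-to-trough distance of 0.53 with an R2 of 0.18. The podocyte sum had a distance of 0.25 with an R2 of 0.40 in control and of 0.10 with an R2 of 0.099 in cKOt. The part of cell composition in the members' changes was not tested.

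In control mice Lingo4, a leucine-rich repeat membrane protein, had 0.755, 0.385, 0.611, 0.584 and 0.413 CPM at ZT4 and 1.43, 2.26, 1.25, 1.79 and 1.94 CPM at ZT20. In cKOt mice it was at 3.09, 3.82, 3.79, 4.08 and 2.27 CPM at ZT4 and at 3.73, 2.66, 2.91, 2.90 and 4.06 CPM at ZT20. All 10 of these cKOt values were above those of the 10 controls at the same times, and the fitted control peak was at ZT17.1. The mean level of Lingo4 rose by 1.75 (SE 0.089, adjusted p = 7.36e-24), the largest rise of the module. Over both genotypes its mean was 2.13 CPM, so it passed the minimum of 2 CPM only through its cKOt level. Whether reads from a neighbouring gene contribute to the Lingo4 counts was not tested.

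**Figure D5:**
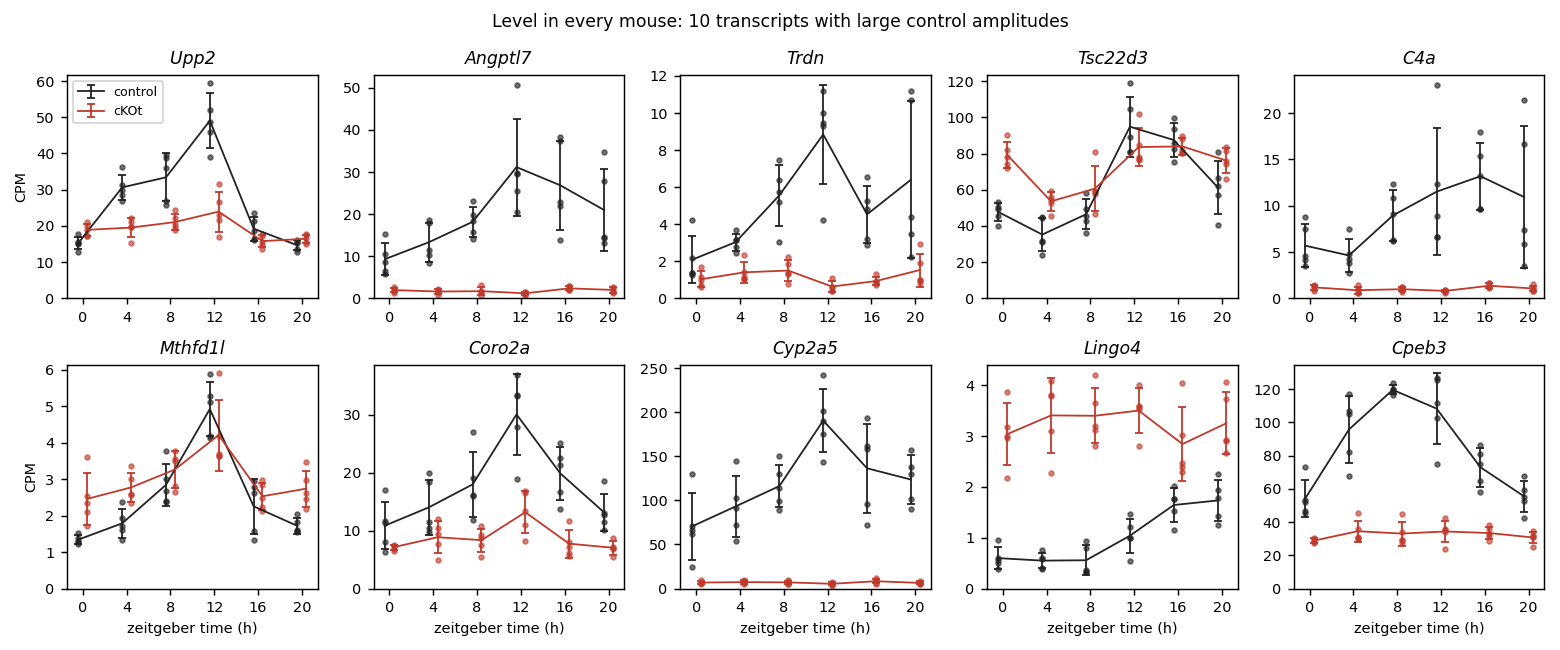
CPM in every mouse (points), with group mean and SD (lines and bars, n = 5), by zeitgeber time for 10 members with large control amplitudes, control in black and cKOt in red. The red lines are flatter than the black ones, above the black lines at all 6 times for Lingo4, below all of them for Angptl7, C4a and Cyp2a5, and through the control range for Upp2, Tsc22d3 and Mthfd1l.

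Counts by role stand beside those of the whole module (47 of 62 fell, 6 rose) and of all genes tested (23.2% fell, 26.8% rose). Of 11 members described here that act in transcription, the cell cycle, RNA or protein turnover, 7 fell and 1 rose. Cpeb3, which binds the tails of messenger RNAs and represses their translation, had 117 to 124 CPM in the 5 control mice at ZT8 and 45.3 to 73.2 CPM at ZT0. In cKOt mice the ranges were 27.2 to 45.2 and 27.4 to 30.7 CPM, so all cKOt values at ZT8 were under the lowest control value at ZT0. Its mean level fell by 1.42 on the log2 scale (SE 0.056, adjusted p = 9.60e-29).

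Wee1, the kinase that holds back entry into mitosis and a known target of the clock in liver, had 32.8, 34.9, 35.4, 38.1 and 36.1 CPM in control mice at ZT12. In cKOt mice at ZT12 it had 16.4, 16.5, 20.8, 16.3 and 16.3 CPM, with no overlap. At ZT0, the control low point, the ranges were 13.1 to 18.8 and 11.3 to 15.7 CPM and overlapped. The mean level fell by 0.83 (SE 0.051, adjusted p = 1.75e-20).

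Other cell cycle members differed in direction. Mcm10, needed to start DNA replication, had a control mean of 9.74 ± 1.56 CPM at ZT8 and 3.79 ± 0.63 CPM in cKOt mice, and its fitted cKOt amplitude of 0.042 was the lowest of the module. Its day average fell by 1.03 (adjusted p = 1.44e-21). Cep72, a centrosome protein, rose by 0.16 (adjusted p = 0.00464), a call that was lost without the mice numbered 1 (adjusted p = 0.0779). Cit, the kinase of the cleavage furrow, had a fold change of 0.03 (adjusted p = 0.803).

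Usp2, a deubiquitinating enzyme with clock-driven expression in many tissues, was among the most regular control rhythms (R2 of 0.865). Control mice had 184 to 215 CPM at ZT12 and 75.6 to 95.0 CPM at ZT0, and cKOt mice 91.6 to 138 and 92.0 to 108 CPM. The cKOt level thus lay between both control extremes, and the mean fell by 0.41 (SE 0.039, adjusted p = 3.16e-13). Rnf24 and Lonrf1, ring-finger proteins, fell by 0.67 (adjusted p = 6.34e-08) and 0.96 (adjusted p = 7.35e-19). The control mice at ZT12 ranged from 282 to 858 CPM for Rnf24, the cKOt mice from 171 to 242 CPM. Amz1, a metalloprotease-like protein, fell by 0.88 (adjusted p = 1.01e-13). Ddx60, a helicase of the antiviral response (-0.13, adjusted p = 0.19), and Phf24, a zinc finger protein (0.06, adjusted p = 0.644), did not pass the test.

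Metabolic enzymes, acetyltransferases and transporters made up 16 members, of which 14 fell and 1 rose (23.2% and 26.8% of all genes). Upp2, a uridine phosphorylase that breaks down uridine, was at 52.0, 48.8, 38.9, 59.5 and 46.0 CPM in control mice at ZT12 and at 13.5, 15.6, 16.0, 12.9 and 15.2 CPM at ZT20. The cKOt mice had 31.7, 21.6, 16.9, 23.1 and 26.5 CPM at ZT12 and 15.6, 15.1, 17.7, 16.5 and 17.4 CPM at ZT20. The groups were apart at ZT12 and overlapped at ZT20, and the mean fell by 0.46 (SE 0.0505, adjusted p = 2.87e-11).

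Cyp2a5, a cytochrome P450 that oxidises coumarin and nicotine, showed the largest fall of the module. Control mice had 190, 242, 175, 201 and 144 CPM at ZT12 and 130, 61.5, 70.8, 66.0 and 24.1 CPM at ZT0. The cKOt mice had 6.88, 5.53, 3.11, 4.79 and 6.60 CPM at ZT12 and 6.92, 6.18, 4.80, 10.2 and 5.89 CPM at ZT0. It was 1 of 5 members whose 30 cKOt values all lay below the 30 control values, with Angptl7, C4a, Prkag3 and Gjb2 (0.251% of all genes did so), and 1 member had all its cKOt values above control (0.560%). The mean of Cyp2a5 fell by 4.17 (SE 0.12, adjusted p = 8.90e-35). Cyp2a4, a near copy that can share reads with it and is no member, fell by 3.03 from 511 to 66.4 CPM (adjusted p = 8.91e-39) with a control peak-to-trough distance of only 0.28.

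Prkag3, a regulatory subunit of the energy sensor AMPK, had 13.9 ± 2.6 CPM at ZT12 in control mice against 1.78 ± 0.52 CPM in cKOt, and its mean fell by 2.35 (adjusted p = 2.94e-31). Mthfd1l, a mitochondrial enzyme of folate metabolism, was an exception among the enzymes. Its 5 control mice had 5.29, 4.19, 5.10, 5.89 and 4.13 CPM at ZT12 and 1.39, 1.29, 1.52, 1.29 and 1.22 CPM at ZT0. In cKOt mice the values were 3.63, 3.68, 5.90, 4.17 and 3.64 CPM at ZT12, overlapping with control, and 1.70, 3.60, 2.10, 2.54 and 2.34 CPM at ZT0, all above control. The mean rose by 0.30 (SE 0.074, adjusted p = 0.000493).

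Smaller falls were found for abundant enzymes and carriers. Glul, glutamine synthetase, which consumes ammonia in the proximal tubule, had 699 ± 79 CPM at ZT12 in control mice against 418 ± 69 CPM in cKOt, and fell by 0.46 (adjusted p = 2.99e-14). Nmrk1, which phosphorylates nicotinamide riboside on the way to NAD, fell by 0.29 (adjusted p = 1.59e-06). Ttpa, the vitamin E transfer protein, fell by 1.05 (adjusted p = 5.15e-18), and Slc5a6, the carrier of biotin and pantothenate, by 0.53 (adjusted p = 8.97e-18). Castor1, an arginine sensor upstream of mTORC1, fell by 0.95 (adjusted p = 1.32e-22). The serotonin transporter Slc6a4 fell by 0.24 (adjusted p = 0.00353), Gpcpd1, which acts on glycerophosphocholine, by 0.21 (adjusted p = 0.000671), and the transglutaminase Tgm1 by 0.61 (adjusted p = 3.17e-10).

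The Nat8f acetyltransferases, a cluster of related genes on chromosome 6 (GRCm38), gave 4 members. Nat8f3 had 12.3 to 17.5 CPM in control mice at ZT8 and 1.68 to 5.03 CPM in cKOt mice, and fell by 1.74 (adjusted p = 1.72e-27). Nat8f6 had 151 to 176 and 40.0 to 50.4 CPM at ZT12 and fell by 1.28 (adjusted p = 5.95e-25), and Nat8f7 had 8.54 to 10.6 and 1.53 to 3.11 CPM and fell by 1.96 (adjusted p = 3.40e-26). Nat8f4 behaved otherwise, with 19.4 to 24.9 CPM in control at ZT8, 13.8 to 16.6 CPM in cKOt, and a fold change of -0.03 (adjusted p = 0.661). Its level was flattened at a value within the control range. Of the relatives that are no members, Nat8f5 fell by 2.06 and kept 79.7% of its amplitude, while Nat8, Nat8f1 and Nat8f2 fell by 0.76, 0.85 and 1.10 and had weak control rhythms (0.60, 0.16 and 0.23).

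These genes are near copies of one another, and the split of reads between them is uncertain. Nat8f6 also overlaps Nat8f5 on the same strand. The copies extend upstream. Over 242 bases before their RefSeq starts, Nat8f6 and Nat8f7 differed at 6 positions (97.5% identity without gaps), whereas each other pair of the 4 members reached at most 35.2%. A matching stretch of 110 bases, which ends at the start of Nat8f6 and 8 bases before that of Nat8f7, is printed to show this, from chr6:85809878-85809987 and chr6:85708570-85708679 (minus strand), with the 1 differing base in capitals.
Nat8f6: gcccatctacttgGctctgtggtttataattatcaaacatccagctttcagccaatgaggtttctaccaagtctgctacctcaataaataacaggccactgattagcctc
Nat8f7: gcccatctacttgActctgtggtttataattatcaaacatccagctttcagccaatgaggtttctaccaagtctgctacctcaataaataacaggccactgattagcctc

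All 11 members grouped under secreted or matrix proteins passed the test as falls (23.2% of all genes did), 1 of them, Ccdc3, not under 7 of 15 alternatives. C4a is counted in this group although its annotation is not protein-coding. The role groups were not tested against each other. Angptl7, an angiopoietin-like secreted protein, had 25.5, 29.7, 50.7, 29.5 and 20.5 CPM in control mice at ZT12 and 6.56, 10.6, 15.2, 5.72 and 8.54 CPM at ZT0. In cKOt mice it had 1.32, 1.53, 1.53, 0.573 and 1.06 CPM at ZT12 and 1.32, 1.85, 2.26, 2.64 and 1.74 CPM at ZT0. The control spread was wide, yet every cKOt mouse was lower than every control mouse, and the mean fell by 3.45 (SE 0.12, adjusted p = 1.23e-30).

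C4a, a complement gene listed as a processed transcript in the GENCODE annotation, had 9.69, 17.9, 13.2, 9.68 and 15.4 CPM in control mice at ZT16 and 7.50, 3.85, 4.27, 2.76 and 4.75 CPM at ZT4. The cKOt values were 1.19, 1.64, 1.11, 1.65 and 1.20 CPM at ZT16 and 0.524, 1.39, 0.853, 1.05 and 0.553 CPM at ZT4. The mean fell by 3.13 (SE 0.15, adjusted p = 1.74e-24). Its near copy C4b, no member, fell by 1.09 (adjusted p = 2.03e-09) with a control peak-to-trough distance of 0.13, and reads shared by both are uncertain.

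Binding proteins for insulin-like growth factors were 2 abundant members. Igfbp3 peaked at ZT7.01, with 273 ± 29 CPM at ZT4 in control mice against 178 ± 33 CPM in cKOt, and its mean fell by 0.26 (adjusted p = 8.14e-05). Igfbp4 peaked later, at ZT10.7, with 539 ± 20 and 351 ± 49 CPM at ZT12, and fell by 0.33 (adjusted p = 1.56e-13). Of the matrix proteins, Hapln1, which links hyaluronan to proteoglycans, fell by 2.11 (adjusted p = 3.31e-22) and hemicentin Hmcn2 by 0.60 (adjusted p = 4.43e-11). The small proteoglycan Tsku fell by 1.50 (adjusted p = 1.62e-23) and the ligands Wnt5b and Nrg4 by 0.89 (adjusted p = 5.63e-19) and 0.49 (adjusted p = 9.98e-07). The TNF-family ligand Tnfsf15 and the secreted protein Ccdc3 fell by 0.38 (adjusted p = 0.00157) and 0.19 (adjusted p = 0.033). The Ccdc3 call was lost in 7 of 15 alternatives (highest adjusted p = 0.187).

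Of 7 membrane proteins, 5 fell (23.2% of all genes did) and Lingo4 rose. The voltage-gated potassium channel Kcnh1 had a fold change of 0.07 (adjusted p = 0.664). Trdn, triadin, a protein of the calcium release complex, had 11.2, 9.31, 9.48, 10.0 and 4.24 CPM in control mice at ZT12 and 2.19, 1.24, 4.23, 1.35 and 1.39 CPM at ZT0. In cKOt mice it had 0.606, 1.11, 0.421, 0.417 and 0.634 CPM at ZT12 and 0.714, 1.01, 1.13, 1.68 and 0.600 CPM at ZT0. One control mouse stood below the other 4 at ZT12, and still above all cKOt mice of that time. The mean fell by 2.09 (SE 0.14, adjusted p = 2.19e-18).

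Gjb2, the gap junction protein connexin 26, reached 114 to 175 CPM in control mice at ZT4, whereas cKOt mice at that time had 40.0 to 47.1 CPM. Its mean fell by 1.36 (SE 0.044, adjusted p = 1.67e-32). Cxcr4, the receptor for the chemokine CXCL12, and Cd83, a surface protein of immune cells, fell by 0.47 (adjusted p = 1.55e-06) and 0.42 (adjusted p = 8.34e-05), and the death receptor Tnfrsf21 by 0.34 (adjusted p = 5.28e-08). The macrophage list, which differed by -0.15 in its sum, moved the same way as Cd83, and its part was not tested.

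Hormone response and intracellular signalling gave 12 members, of which 8 fell and 2 rose (23.2% and 26.8% of all genes). Those 2 were Tsc22d3, also called GILZ, and Sgk1, the kinase that raises sodium channel activity in the distal nephron, both induced by glucocorticoids. Tsc22d3 had 80.8, 119, 105, 80.9 and 88.9 CPM in control mice at ZT12 and 31.1, 44.7, 44.5, 24.2 and 31.7 CPM at ZT4. The cKOt mice had 76.2, 77.1, 84.9, 78.0 and 102 CPM at ZT12, overlapping with control, and 54.3, 59.5, 56.0, 45.6 and 52.6 CPM at ZT4, all above control. The mean rose by 0.21 (SE 0.056, adjusted p = 0.00142).

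Sgk1 had 103 to 222 CPM in control mice at ZT12 and 128 to 255 CPM in cKOt, and 53.8 to 89.0 and 82.4 to 105 CPM at ZT4. Its mean rose by 0.21 (SE 0.078, adjusted p = 0.0198), a call that was not kept without RUVs factors (adjusted p = 0.0559), with the batch of the study's sample sheet in their place (0.0919), or without the mice numbered 3 (0.0504) or 5 (0.118). Of 14 tested genes in a list of glucocorticoid-responsive genes, 4 rose (26.8% of all genes did) and 7 fell (23.2%), among them Fkbp5 (-0.40, adjusted p = 9.54e-06) and Zbtb16 (0.86, adjusted p = 3.46e-06), which are no members.

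Coro2a, an actin-binding coronin, was at 33.2, 27.9, 36.8, 33.3 and 19.0 CPM in control mice at ZT12 and at 8.10, 11.4, 17.0, 6.22 and 11.6 CPM at ZT0. The cKOt mice had 8.26, 10.9, 16.8, 13.4 and 16.4 CPM at ZT12 and 7.41, 7.48, 7.38, 6.86 and 6.54 CPM at ZT0. No cKOt value reached the control range at ZT12, whereas the groups overlapped at ZT0. The mean fell by 1.05 (SE 0.092, adjusted p = 2.12e-14).

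The other signalling and cytoskeletal members fell or did not pass the test. Tnfaip8, an inhibitor of cell death with 579 ± 75 CPM at ZT12 in control mice against 275 ± 34 CPM in cKOt, fell by 0.68 (adjusted p = 3.15e-21). The scaffolds Dlg2 and Mpp4 fell by 1.17 (adjusted p = 1.63e-18) and 0.59 (adjusted p = 9.99e-07), and the reads of Mpp4 are uncertain because of an overlapping gene. The formin Fmnl1 fell by 0.47 (adjusted p = 2.40e-14), the focal adhesion protein Tns2 by 0.37 (adjusted p = 1.38e-17), the kinase Map2k6 by 0.25 (adjusted p = 5.25e-06) and the arrestin-domain protein Arrdc2 by 0.22 (adjusted p = 0.015). The phosphatase Dusp9 (-0.13, adjusted p = 0.0795) and Gprin3 (-0.16, adjusted p = 0.247) did not pass the test.

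Of 4 long non-coding RNAs, Gm11766 fell by 0.46 (adjusted p = 4.31e-06) and Gm37245 by 0.63 (adjusted p = 2.89e-09). Gm32391 (-0.09, adjusted p = 0.19) and Hnf4aos, the antisense RNA of the nuclear receptor gene Hnf4a, (0.08, adjusted p = 0.289) did not pass.

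Rhythms with a 12 h period were tested in the same fit. In control mice 2 members had such a component, against 0.579% of all genes, among them Nat8f3 (peak to trough 0.61 log2 units, adjusted p = 0.0322). In cKOt mice 1 member did, Phf24 (0.91, adjusted p = 0.0297), against 0.907%. The difference between genotypes in the 12 h component passed the edgeR test for 0 members (0.0129% of all genes), with 5 members at an unadjusted p under 0.05. DESeq2 and limma-trend also called 0. Members were chosen for a daily cosine that explains a minimum share of the control variance. This leaves less variance for a 12 h component in control, and so bears on the difference between genotypes too. The control count and the count for the difference thus do not compare members with all genes on equal terms. No conclusion is drawn from either. The calls within a genotype rested on few mice, since leaving out all mice of 1 replicate number gave 0 to 2 members in control and 0 or 1 in cKOt.

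The lists of related genes give the setting. Of 19 core clock genes, 9 fell and 7 rose (of all genes tested, 23.2% fell and 26.8% rose). Among the genes left out by name, Dbp and Ciart fell by 1.45 (adjusted p = 3.80e-19) and 2.63 (adjusted p = 5.52e-21) and kept 49.9% and 35.0% of their control amplitude, and Tef fell by 0.57 (adjusted p = 1.70e-19) and kept 28.3%. Cry1 (1.56, adjusted p = 5.67e-35) and Cry2 (0.54, adjusted p = 1.24e-24) rose, with 16.3% and 26.6% of their amplitude left. Nr1d1 and Nr1d2 kept 76.6% and 75.6%, and Per1, Per2 and Per3 55.5% to 69.8%. Of 23 tested genes that are clock outputs in other tissues, 19 fell and 2 rose, Tsc22d3 and Cdkn1a, and 3 were members (Wee1, Usp2 and Tsc22d3).

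Within the 6 batches of the study's sample sheet, which hold 9 to 12 mice each, the difference had the sign of the call in every batch for 38 of the 47 members that fell and in at least 5 batches for 45. It did so in every batch for 5 of the 6 that rose. Single mice moved the module as a whole by little, since the median deviation of the members from their group mean lay between -0.16 and 0.19 log2 units over the 60 mice. The extremes were control replicates 4 and 2 at ZT16, and their Arntl levels were 34.3 and 13.5 CPM.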

How the data were processed

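RNA-seq counts of 60 mice were used, 1 of which the study's sample sheet marks for removal. The authors made libraries from 200 ng of RNA with a stranded kit, trimmed, aligned and counted the reads per Ensembl gene (per the labels cutadapt 1.8, STAR 2.5.3a and HTSeq 0.9.1, build GRCm38), and kept 5 of 6 mice per group in part to remove outliers. The deposited values are raw counts. Rows for unassigned reads were left out (no feature 7.17% to 10.6% of the reads in a library). The 24 h cosine was fitted by least squares. Mean levels and 12 h components were tested on the counts with edgeR 4.0.16 (TMM, quasi-likelihood F test, 2 RUVs factors as covariates, RUVs written anew with a prior count of 2), for the 15546 genes that reached 1 CPM in any of the samples, threshold 0.05. DESeq2 1.42.0 and limma 3.58.1 were alternatives. SEs come from the F statistic.

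The rule and the fits were also run on simulated counts with known changes, drawn without batch effects, and the outcome is not given here. Of the 62 members, 1 is counted but not reported here. Members, role groups, gene lists and tests were chosen with earlier results of these data known. Genes named by rule were the 24 largest control amplitudes, list members, the 6 largest changes each way and those nearest the thresholds. Some of them are given without CPM values, and other members follow by role. Near copies and other genes that are no members (Cyp2a4, C4b, the other Nat8 genes, Fkbp5, Cdkn1a) and the printed sequences were chosen after their values were seen. Samples with the same replicate number did not deviate together (mean correlation 0.0043 over 330 pairs, -0.0010 over 1320 others), so the number is not a pairing. Samples of 1 batch had 0.0361 over 270 pairs. Batches come from the study's sample sheet, which does not say what they mark. Positions of genes follow GENCODE M21 (GRCm38).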

Additional observations from a re-analysis of the deposited data

Results flagged for a closer look

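In groups of 5 mice, 1 mouse can stand apart from the rest by chance in about 1 of 20 groups, and 2 of the 40 groups checked held such a mouse. Trdn in control mice at ZT12 was at 4.24 CPM in 1 mouse and at 9.31 to 11.2 CPM in the other 4. Mthfd1l in cKOt mice at ZT12 was at 5.90 CPM in 1 mouse and at 3.63 to 4.17 CPM in the other 4. No explanation was tested for either value.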

How the results depend on the processing

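The module had 40 members with a pseudocount of 2, 41 with an R2 of at least 0.5 and 36 when cKOt amplitude could be at most 33.3% of control. It had 54 to 72 members without 1 replicate number, and 43 of the 62 were found again without replicate 1. Without the sample marked for removal it had 62 members, 61 of them shared. Over every fit run, 45 to 48 of the 62 members fell and 5 or 6 rose. With the replicate block these were 47 and 6, and the block changed no other call count. In each module rebuilt under another setting, 68.4% to 80.0% of the members fell by the calls of the main fit (23.2% of all genes did). Only the choice of members was redone there. The 12 h component in control was called for 1 member by limma-trend, without RUVs factors, with 1 factor and with batch in their place. It was called for 3 by DESeq2 (1.03% of all genes), and for 0 to 2 without 1 replicate number. As in the main fit, the choice of members limits these control counts. In cKOt it was called for 0 by limma-trend and without RUVs factors, and for 0 or 1 without 1 replicate number. The sign of 4 uncalled fold changes turned. Kcnh1 ranged from -0.0060 to 0.13 without 1 replicate number, Phf24 from -0.035 to 0.12 (and was at -0.015 with batch in place of RUVs factors), and Nat8f4 from -0.047 to 0.00075. Cit, outside the genes named by rule, ranged from -0.039 to 0.066 over 15 alternatives. Besides Sgk1, Cep72 and Ccdc3, the calls of Slc6a4 and Arrdc2 were lost in 1 alternative each (adjusted p = 0.0774 and 0.182). The causes of these changes were not tested.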
